A study of Mus musculus with 12 samples.

Results

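Zranb3, Tm4sf19, Rnf128 and Adam8 are 4 of the genes whose mRNA was lowest in the TJ group relative to the HFD group in epididymal fat (eWAT), and they are described here over all 12 deposited libraries. They were chosen by name, because of the size of their fall between the HFD and TJ libraries, from the 23474 genes of the table. Each symbol matched a single mouse Ensembl identifier. Their values in the HFD and TJ groups are therefore a description and carry no test. The comparison of the GT group with the ND group used none of the libraries behind the choice, and it is the only one in which the 4 genes were tested.

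The mice were male C57BL/6J, with no genetic change named, and were 17 weeks old. From 5 weeks of age they were fed for 12 weeks a normal diet (ND), a high-fat diet (HFD), the HFD with an ethanol extract of green tea at 0.25% by weight (GT) or the HFD with the herbal formula Taeeumjowuitang at 3% by weight (TJ). The HFD, GT and TJ groups thus shared the high-fat diet, and the ND group had neither the diet nor an extract. Each group had 10 mice and 3 libraries of eWAT mRNA, and neither the labels nor the methods tie a library number to anything that groups share. Expression was given as FPKM, fragments per kilobase of transcript, scaled to the mapped fragments of the library. Whole tissue was sequenced, so fewer cells of a type and less RNA per cell cannot be told apart.

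The 4 encoded proteins act in different places in the cell. Zranb3 encodes a DNA translocase that binds polyubiquitinated PCNA at stalled replication forks and remodels them. Tm4sf19 encodes a membrane protein of the L6 family, known from osteoclasts and multinucleated macrophages and as a partner of the vacuolar proton pump of lysosomes. Rnf128, also called Grail, encodes an endosomal ubiquitin ligase known for T cell anergy. Adam8 encodes a membrane-bound metalloprotease of myeloid cells that cleaves adhesion molecules and receptors. In obese fat, macrophages gather around dying adipocytes, take up lipid and can fuse into multinucleated giant cells.

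Some libraries stood apart before any comparison. In ND replicate 1, 8 germ cell markers summed to 98971 FPKM, 9.87% of its total, against 165 and 2980 FPKM in the other ND libraries and 2061 FPKM in HFD replicate 1. The other 8 libraries had at most 76.8 FPKM. The epididymis markers summed to 14573 FPKM in ND replicate 1 and to 1275 FPKM in HFD replicate 2, and the 7 adipocyte markers to only 4159 FPKM in ND replicate 1 against 16371 FPKM or more elsewhere. Across genes, the Spearman correlation within the ND group ran from 0.268 to 0.853, against 0.921 to 0.991 within the other groups. Results that rest on ND replicate 1 are given with and without it. TJ replicate 2 had the highest adipocyte sum of the 12 libraries, 59867 FPKM. Depth, judged from the smallest FPKM steps, was roughly 9.33M to 19.5M fragments per library. These depths are rough, and no counting interval was derived from them.

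The 4 genes lie on 4 chromosomes. In GRCm38, Zranb3 (ENSMUSG00000036086) spans chr1:127954184-128103047 on the minus strand, and its longest coding transcript has 21 exons and 4741 nt. Tm4sf19 (ENSMUSG00000079625) spans chr16:32400506-32408227 on the plus strand, with 5 exons and 1257 nt. Rnf128 (ENSMUSG00000031438) spans chrX:139563316-139673145 on the plus strand, with 7 exons and 2750 nt. Adam8 (ENSMUSG00000025473) spans chr7:139978932-139992562 on the minus strand, with 24 exons and 3117 nt. The 250 bases before the RefSeq start of each gene (build GRCm38.p6) are shown because the 4 mRNAs moved together across the groups, so that their starts can be compared. They are chr1:128103048-128103297 for Zranb3, chr16:32400256-32400505 for Tm4sf19, chrX:139610370-139610619 for Rnf128, whose RefSeq start lies inside the longer span above, and chr7:139992563-139992812 for Adam8. Each is read 5′ to 3′ on the strand of the gene, and capitals mark the motif letters that were found.
Zranb3: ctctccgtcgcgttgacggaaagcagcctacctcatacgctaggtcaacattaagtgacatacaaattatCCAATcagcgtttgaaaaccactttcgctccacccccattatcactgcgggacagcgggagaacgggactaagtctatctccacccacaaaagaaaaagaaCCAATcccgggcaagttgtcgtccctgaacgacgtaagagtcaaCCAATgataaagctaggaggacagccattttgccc
Tm4sf19: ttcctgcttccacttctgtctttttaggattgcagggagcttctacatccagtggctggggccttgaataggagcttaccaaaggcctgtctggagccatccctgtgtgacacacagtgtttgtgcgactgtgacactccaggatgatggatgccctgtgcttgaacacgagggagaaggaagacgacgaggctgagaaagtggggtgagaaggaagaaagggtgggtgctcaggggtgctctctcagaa
Rnf128: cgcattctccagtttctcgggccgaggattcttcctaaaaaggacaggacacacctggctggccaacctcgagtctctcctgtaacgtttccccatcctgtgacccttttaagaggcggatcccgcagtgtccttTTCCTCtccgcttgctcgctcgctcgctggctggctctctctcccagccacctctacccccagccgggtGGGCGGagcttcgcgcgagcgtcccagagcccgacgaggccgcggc
Adam8: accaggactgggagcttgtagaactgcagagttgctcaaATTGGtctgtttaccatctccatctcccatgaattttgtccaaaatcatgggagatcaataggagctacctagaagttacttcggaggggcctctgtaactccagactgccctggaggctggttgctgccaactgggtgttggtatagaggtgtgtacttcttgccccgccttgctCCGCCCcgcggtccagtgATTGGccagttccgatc

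Both strands were searched for a PU.1-type purine box (GAGGAA), an AP-1 site (TGANTCA), an NF-kB-type site (GGGA and TTCC with NN between them), a CCAAT box (CCAAT), an E-box (CACGTG), a GC box (GGGCGG) and a TATA box (TATAAA). Zranb3 held 3 CCAAT boxes, which 33.8% of 32851 windows of the same length held at least once. Adam8 held 2 of them, read on the opposite strand, and a GC box, which was in 32.7% of windows. Rnf128 held a purine box, present in 23.3% of windows, and a GC box. The window of Tm4sf19 held none of the 7 motifs. The AP-1 site, the E-box, the TATA box and the NF-kB-type site, in 6.75%, 6.02%, 12.4% and 1.21% of windows, were in none of the 4 windows. None of the matches overlapped another, and no motif was shared by all 4. The window before a further RefSeq start of Zranb3, not shown, held a purine box. Their CpG counts were also apart, at 21 for Rnf128 and 14 for Zranb3 against 6 for Adam8 and 4 for Tm4sf19, with a median of 6 over all windows. GC content was 63.2% for Rnf128, 53.6% for Tm4sf19, 52.8% for Adam8 and 49.2% for Zranb3, with a median of 52.4%.

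Zranb3, the fork remodeler, measured 4.98, 0.901 and 3.19 FPKM in ND replicates 1 to 3. In the HFD group it measured 53.6, 48.3 and 84.8 FPKM. In the GT group it measured 20.5, 12.6 and 5.48 FPKM, and in the TJ group 7.67, 1.13 and 6.53 FPKM. The HFD libraries lay above every other library, and the TJ values overlapped those of both the GT and the ND groups. The means were 3.02 ± 2.04 FPKM (ND), 62.2 ± 19.7 (HFD), 12.9 ± 7.54 (GT) and 5.11 ± 3.49 (TJ; SD, n = 3 each). The TJ mean was 8.21% of the HFD mean, the GT mean 20.7% of it. The log2 difference between the TJ and HFD groups, on log2(FPKM + 1) as for every log2 value here, was -3.57 (standard error 0.53) and was -2.92 without TJ replicate 2.

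Tm4sf19, the lysosome-linked membrane protein, was near the floor in the ND group, at 0.461, 0.300 and 0.401 FPKM, each of which stands for roughly 6 to 7 fragments. It measured 37.9, 52.2 and 68.8 FPKM in the HFD group and 32.5, 24.5 and 7.97 FPKM in the GT group. The TJ libraries measured 10.6, 0.179 and 9.40 FPKM, so that TJ replicate 2, with roughly 4 fragments, lay below every ND library while the other TJ libraries lay above them. The means were 0.387 ± 0.0813 FPKM (ND), 52.9 ± 15.5 (HFD), 21.6 ± 12.5 (GT) and 6.74 ± 5.72 (TJ; SD, n = 3 each). The TJ mean was 12.7% and the GT mean 40.9% of the HFD mean. The log2 difference between TJ and HFD was -3.33 (standard error 0.84). Without TJ replicate 2 it was -2.25, and with a pseudocount of 0.1 it was -4.08.

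Rnf128, the anergy ubiquitin ligase, differed from the other genes in the ND group, where it measured 12.8, 0.607 and 14.0 FPKM. ND replicates 1 and 3 were also the ND libraries with the higher germ cell sums given above and the higher mesothelial marker sums, 145 and 80.3 FPKM against 23.3 FPKM in ND replicate 2. The part of these cells in the ND values was not tested. Rnf128 measured 60.0, 54.6 and 73.3 FPKM in the HFD group, 31.2, 21.2 and 7.50 FPKM in the GT group and 17.0, 1.02 and 12.3 FPKM in the TJ group. Every HFD library lay above the rest, and the ND, GT and TJ groups overlapped one another. The means were 9.14 ± 7.42 FPKM (ND), 62.6 ± 9.64 (HFD), 20.0 ± 11.9 (GT) and 10.1 ± 8.21 (TJ; SD, n = 3 each). The TJ mean was 16.1% and the GT mean 31.9% of the HFD mean. The log2 difference between TJ and HFD was -3.01 (standard error 0.76), -2.03 without TJ replicate 2 and -3.61 without TJ replicate 1.

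Adam8, the myeloid metalloprotease, was the most abundant of the 4 per transcript length in the HFD group, where it measured 179, 152 and 202 FPKM and stood at percentile 98.0 to 98.5 of the genes of each library. It measured 0.582, 2.14 and 4.98 FPKM in the ND group, 124, 91.4 and 36.3 FPKM in the GT group and 55.6, 5.29 and 46.0 FPKM in the TJ group. It was the only one of the 4 whose TJ libraries all lay above the ND libraries, by a narrow margin in TJ replicate 2, as did those of 12.5% of 14251 genes. The means were 2.57 ± 2.23 FPKM (ND), 178 ± 25.4 (HFD), 83.8 ± 44.2 (GT) and 35.6 ± 26.7 (TJ; SD, n = 3 each). The TJ mean was 20.0% and the GT mean 47.1% of the HFD mean. The log2 difference between TJ and HFD was -2.80 (standard error 0.78), and -1.78 without TJ replicate 2.

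**Figure D1:**
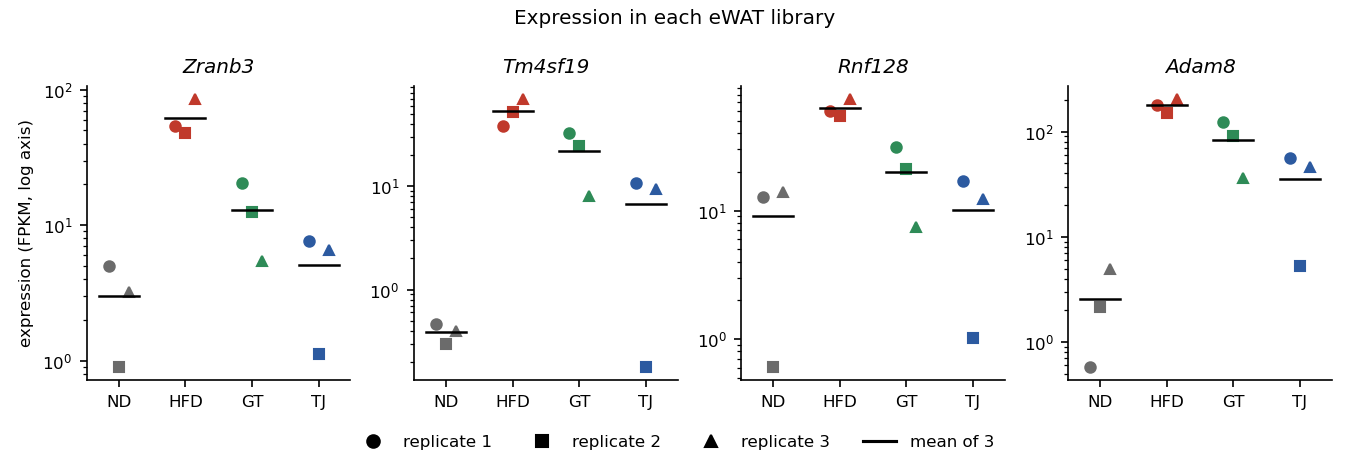
Expression of the 4 genes in FPKM (vertical log axis, a scale per panel) in each of the 12 libraries, by diet group on the horizontal axis. Symbols are replicates and bars are means of 3. The HFD libraries are highest in every panel, the TJ and GT libraries overlap, and TJ replicate 2 is the lowest TJ library, at 1.13, 0.179, 1.02 and 5.29 FPKM from left to right.

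The means of Zranb3, Tm4sf19 and Adam8 ran in order from HFD through GT and TJ to ND. Those of Rnf128 did too, but its TJ and ND means changed places without ND replicate 2 (ND 13.4 FPKM), TJ replicate 1 or TJ replicate 3, and its median was higher in ND (12.8 FPKM) than in TJ (12.3 FPKM). HFD was the group that did not overlap the others, whereas the TJ and GT groups overlapped for all 4 and the TJ and ND groups for Zranb3, Tm4sf19 and Rnf128. HFD replicate 3 was the highest HFD library, GT replicate 3 the lowest GT library and TJ replicate 2 the lowest TJ library for all 4, and each gene was higher in TJ replicate 1 than in GT replicate 3. The 4 genes are thus not separate replicates of a diet effect, since they share their libraries. The libraries of the HFD group lay above those of the ND group for all 4 genes, as for 20.5% of 14430 genes tested. Of the 4, Tm4sf19 reached the mean of 1 FPKM needed for testing only through the HFD group. TJ libraries lay below the HFD libraries for all 4, as for 31.4% of 12807 genes, and the choice of the 4 fixed this. GT libraries lay below the HFD libraries for all 4, as for 24.4% of 12766 genes. The last 2 comparisons share the HFD libraries.

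The values at the edge of the choice were close together. The order of fall given here keeps genes whose HFD and TJ libraries did not overlap and that met the calling threshold, which for the 4 belongs to how they were picked and is no result. In that order the log2 difference was -2.83 for Dnmt3a, a DNA methyltransferase that was not chosen, -2.80 for Adam8, and -2.79 for Tlr8 and -2.75 for Tlr13, receptors for nucleic acids. Dhrs9, a retinol dehydrogenase, followed at -2.74, the adhesion molecule Cadm1 at -2.72 and the integrin subunit Itgad at -2.58. Over all 12807 genes of that comparison Zranb3 had the 4th, Tm4sf19 the 8th, Rnf128 the 11th and Adam8 the 15th lowest log2 difference.

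The high-fat diet went with higher values of all 4 genes. On the log2 scale the HFD and ND groups differed by 5.84 (standard error 0.52) for Adam8, the 5th highest of 14430 genes, and by 5.24 (0.32) for Tm4sf19, the 12th. The differences were 4.08 (0.51) for Zranb3 and 3.19 (0.90) for Rnf128, ranked 50th and 125th, beside a median of 0.07 over all genes. Tm4sf19, at a mean of 0.387 FPKM in ND, reached the 1 FPKM needed for this ranking only through the HFD group. On the FPKM scale, the HFD mean divided by the ND mean was 69.3 for Adam8, 137 for Tm4sf19, 20.6 for Zranb3 and 6.85 for Rnf128. Without ND replicate 1 these ratios were 50.0, 151, 30.4 and 8.57. No test is given, because the HFD libraries were used to choose the genes. Leaving out ND replicate 2 instead gave a log2 difference of 2.13 for Rnf128. The same difference was 6.74 for Tm4sf19 with a pseudocount of 0.1, where the few fragments of the ND group weigh more.

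The comparison of GT with ND asks how far these genes stood above the normal diet in mice given the high-fat diet and green tea extract, and it is free of the libraries that chose them. The log2 difference was 4.61 (standard error 0.66) for Adam8 and 3.83 (0.54) for Tm4sf19, the 7th and 21st highest of 14249 genes tested. It was 1.77 (0.62) for Zranb3 and 1.40 (1.00) for Rnf128, ranked 378th and 730th, where the median of all genes was 0.02. Tm4sf19, at a mean of 0.387 FPKM in ND, passed the filter on low values only through the GT group, and its difference was 5.27 with a pseudocount of 0.1. With array weights the difference was 3.69 for Adam8 and 0.32 for Rnf128. Adam8, Tm4sf19 and Zranb3 were higher in 3 of 3 GT libraries than in any ND library, as were 14.6% of all genes tested, and Rnf128 overlapped. On the FPKM scale, the GT mean divided by the ND mean was 32.7 for Adam8, 55.9 for Tm4sf19, 4.25 for Zranb3 and 2.18 for Rnf128. Without ND replicate 1 these were 23.6, 61.7, 6.28 and 2.73.

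None of the 4 genes passed the test between GT and ND. To be called, a gene had to change at least 1.5-fold with a p-value, adjusted by the method of Benjamini and Hochberg, under 0.05. The limma adjusted p was 0.291 for Adam8 and Tm4sf19, 0.443 for Zranb3 and 0.529 for Rnf128. Over 14 alternatives it ran from 5.88e-06 to 0.808 for Adam8, from 7.18e-06 to 0.808 for Tm4sf19, from 0.000798 to 0.808 for Zranb3 and from 0.309 to 0.808 for Rnf128. In limma 0 of 14249 genes were called, 0%, and 1508 genes, 10.6%, passed 0.05 without adjustment, among them Adam8, Tm4sf19 and Zranb3 but not Rnf128. The two-sided exact permutation test of FPKM gave p = 0.1 for Adam8, Tm4sf19 and Zranb3, the smallest that 3 libraries against 3 allow, and p = 0.3 for Rnf128. Without ND replicate 2, Adam8 and Tm4sf19 were called (limma adjusted p = 0.0381 and 0.0367). Tm4sf19 entered the test only because its GT values lifted it over the filter on low values. Without ND replicate 1 the limma adjusted p was 0.0668 for both, and the log2 differences were 4.12 for Adam8, 3.87 for Tm4sf19, 2.13 for Zranb3 and 1.89 for Rnf128. The value of Rnf128 rested on ND replicate 2, without which it was 0.34.

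**Figure D2:**
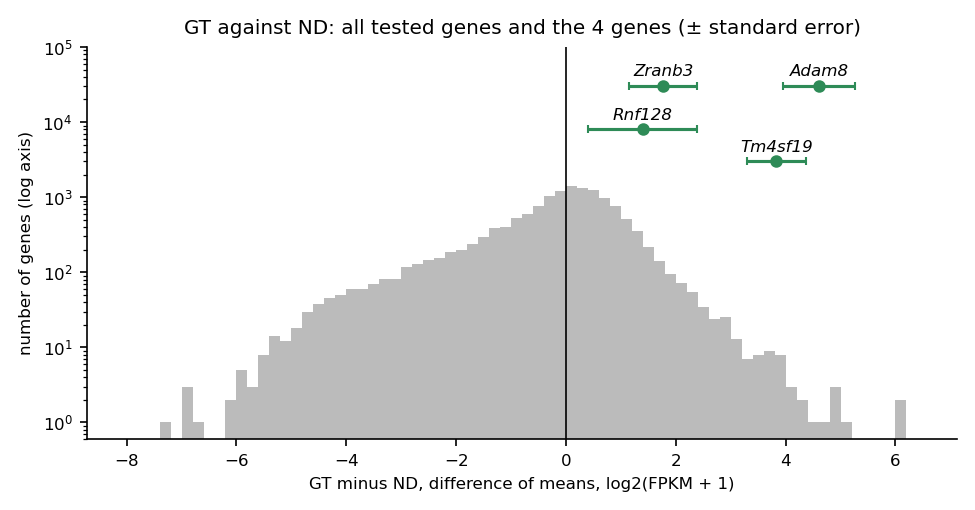
Histogram of the log2 difference between GT and ND (horizontal axis, log2(FPKM + 1)) over the 14249 tested genes, with the number of genes on a vertical log axis. Green points are the 4 genes with their standard errors, at an arbitrary height, from 1.40 for Rnf128 to 4.61 for Adam8.

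The GT and TJ groups were both fed the HFD, and their log2 differences from it are set side by side. They share the HFD libraries. For Zranb3 the difference from HFD was -2.31 in GT and -3.57 in TJ, and for Rnf128 it was -1.79 and -3.01. For Tm4sf19 it was -1.41 in GT and -3.33 in TJ, and for Adam8 -1.24 and -2.80. TJ minus GT was -1.91 for Tm4sf19, -1.56 for Adam8, -1.26 for Zranb3 and -1.22 for Rnf128 and the libraries of both groups overlapped in each case, where 14.9% of 12187 genes were lower in every TJ library. These values rested largely on TJ replicate 2, without which they were -0.84, -0.55, -0.61 and -0.24. Against ND, the TJ group differed by 3.05 for Adam8, 1.92 for Tm4sf19, 0.52 for Zranb3 and 0.18 for Rnf128. Without ND replicate 1 these were 2.56, 1.95, 0.88 and 0.68. With any one library of the 2 groups left out, the difference ran from 2.47 (without TJ replicate 1) to 4.06 (without TJ replicate 2) for Adam8, from 1.34 to 2.99 (the same libraries) for Tm4sf19, from 0.05 (without ND replicate 2) to 1.16 (without TJ replicate 2) for Zranb3, and from -0.88 to 1.16 (the same libraries) for Rnf128, so that Rnf128 had no stable direction against ND. It was also below 0 without TJ replicate 1 or 3, at -0.42 and -0.20.

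Markers of several cell types differed between the same groups as the 4 genes, and their part in the values of the 4 was not tested. The summed FPKM of 9 macrophage markers was 59.3 to 570 in the ND group, 2844 to 3965 in HFD, 1193 to 2618 in GT and 720 to 2104 in TJ, and 8 of the 9 were lower in every TJ library than in every HFD library, as were 31.4% of all 12807 genes. The 8 markers of lipid-associated macrophages summed to 381 to 420 FPKM in ND, 3646 to 5431 in HFD, 1201 to 3393 in GT and 809 to 2478 in TJ, with 7 of 8 lower in the TJ libraries. The library of each group that was lowest for the 4 genes in GT and TJ was also the lowest in macrophage markers, at 1193 and 720 FPKM. The 6 T cell markers were low but went the other way, from 2.75 to 3.58 FPKM summed in HFD to 6.38 to 8.91 FPKM in TJ, with 4 of 6 higher in every TJ library than in every HFD library, as were 20.1% of all genes. The B cell marker Ms4a1 was listed at 0 in all 12 libraries. All 7 adipocyte markers and 3 of 4 endothelial markers were likewise higher in the TJ libraries, and the adipocyte sum was 16371 to 19029 FPKM in HFD and 29046 to 59867 FPKM in TJ. The 5 progenitor markers were lower, at 836 to 878 FPKM summed in HFD and 561 to 612 FPKM in TJ. Each of the 5 proliferation markers was lower in every TJ library than in every HFD library, from 59.6 to 71.4 FPKM summed in HFD to 16.1 to 27.2 FPKM in TJ. Within groups, as deviations from the group means and without a test, the r of the 4 genes with the summed lipid-associated macrophage markers was 0.693 to 0.905 over the 12 libraries. With the macrophage sum it rested on ND replicate 1, from 0.046 for Rnf128 and 0.091 for Zranb3 to 0.757 for Adam8 with that library and from 0.641 to 0.924 without it. With the proliferation sum it was 0.022 for Adam8 to 0.707 for Zranb3 with the library and 0.672 to 0.844 without it. Markers of other cells gave values of like size without ND replicate 1, from 0.735 to 0.875 for the neutrophil sum and from -0.880 to -0.818 for the adipocyte sum, against 0.144 to 0.782 and -0.635 to 0.052 with it.

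Relative to the summed macrophage markers, the 4 genes were lower in the TJ than in the HFD libraries. The sum is not each marker. Lyz2, its largest part, had means of 2452 FPKM in HFD and 1221 FPKM in TJ. Adgre1 went from 222 to 48.5 FPKM and Mertk from 14.8 to 12.1 FPKM, beside 178 to 35.6 FPKM for Adam8. Whether the 4 genes changed more than the macrophages was not tested. Per 1000 FPKM of macrophage markers, Zranb3 measured 17.5 ± 3.67 FPKM in HFD, 5.93 ± 1.70 in GT and 2.95 ± 1.19 in TJ (SD, n = 3 each). Rnf128 measured 17.8 ± 1.82, 9.08 ± 2.82 and 5.44 ± 3.54 FPKM on the same scale. Tm4sf19 measured 15.2 ± 4.58, 9.85 ± 2.91 and 3.51 ± 2.82 FPKM, and its HFD and GT libraries overlapped. Adam8 measured 50.5 ± 3.12, 38.9 ± 8.43 and 19.8 ± 10.8 FPKM, again with an overlap of HFD and GT. These ratios were not tested, since their HFD and TJ values chose the genes. The ND ratios ran from 1.07 to 216 for Rnf128 and from 1.58 to 83.9 for Zranb3, the highest in ND replicate 1, where the markers summed to only 59.3 FPKM.

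**Figure D3:**
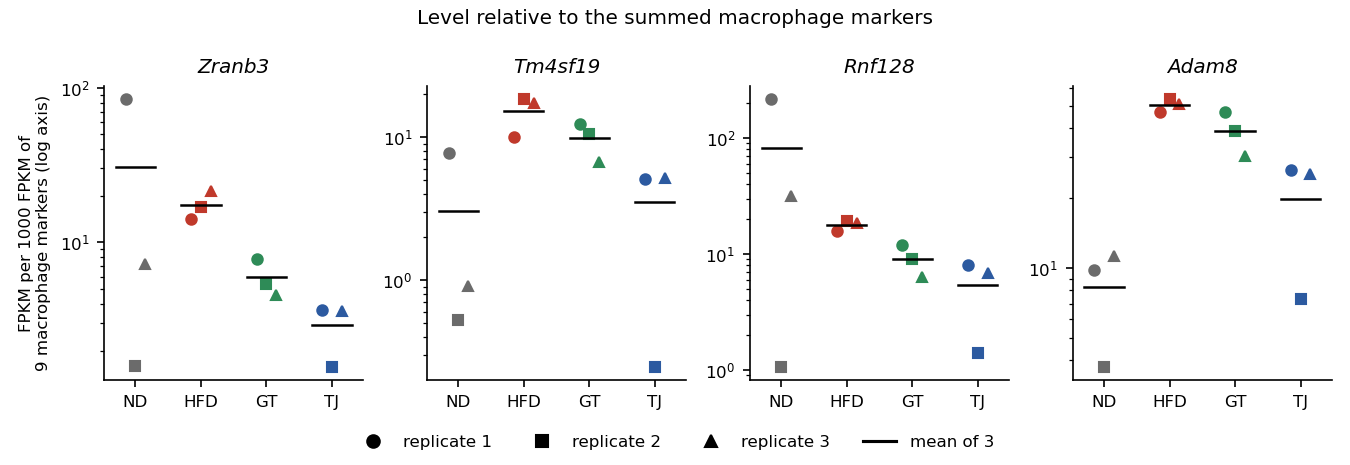
FPKM of each gene per 1000 FPKM of 9 summed macrophage markers (vertical log axis) in the 12 libraries by group, with symbols for replicates and bars for means of 3. The TJ libraries lie below the HFD libraries in each panel, with means of 2.95, 3.51, 5.44 and 19.8 against 17.5, 15.2, 17.8 and 50.5.

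The genes most like each of the 4 were taken by Pearson's r on log2(FPKM + 1) over the 12 libraries, among 13935 genes whose mean reached 1 FPKM. Such an r mostly reflects the group means and the shared libraries and is given without a test. For Adam8 they were the tyrosine kinase Syk, the myeloid receptor Cd300a, Nceh1, which hydrolyses cholesterol esters in macrophages, and the cytokine receptor Il7r, all at 0.996. For Tm4sf19 they were Nckap1l, an actin regulator of blood cells, Dhrs9, the glycosyltransferase Gcnt1, Tlr13 and the semaphorin Sema4d, from 0.996 down to 0.990. For Zranb3 they were Slc25a13, a mitochondrial aspartate and glutamate carrier, Perm1, the sulfiredoxin Srxn1, Tmem206, and a gene without a symbol (ENSMUSG00000029333), from 0.990 down to 0.984. For Rnf128 they were the kinase Pak1, Sel1l3, Arhgap19, 5031439G07Rik and the kinase Prkcd, from 0.973 down to 0.964. Among the 4 genes, r was highest between Tm4sf19 and Adam8, at 0.968, and between Zranb3 and Rnf128, at 0.938. It was lowest between Rnf128 and Adam8, at 0.765. Without ND replicate 1 these 3 values were 0.987, 0.944 and 0.896, and those of the genes named above were 0.968 to 0.996.

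The nearest protein-coding gene on each side was examined, a choice made after the values of the 4 genes were known. R3hdm1, which encodes a protein with an RNA-binding R3H domain, starts 253 bases from Zranb3 on the other strand, so the Zranb3 window shown above lies between both starts. R3hdm1 measured 14.2 ± 0.865 FPKM in HFD and 8.53 ± 1.62 FPKM in TJ (SD, n = 3 each), and it fell by 0.69 on the log2 scale (limma adjusted p = 0.0323), against -3.57 for Zranb3. Between HFD and ND its log2 difference was 0.11 (limma adjusted p = 0.871), against 4.08 for Zranb3. The other neighbours that were tested, Rab3gap1, Ubxn7, Tctex1d2, Tbc1d8b, 6430531B16Rik and Tubgcp2, had log2 differences between TJ and HFD from -1.04 for Tbc1d8b, beside Rnf128 (limma adjusted p = 0.0701), to 0.04 for Rab3gap1, and none was called. Without TJ replicate 1 or any of the HFD replicates, R3hdm1 also lost its call, as did every gene of the table. D330045A20Rik, on the other side of Rnf128, was under 1 FPKM in all libraries. Of the annotated genes that overlap the 4, only Gm16201 was in the table, which shares 46 bases with Adam8 on the opposite strand and reached at most 3.80 FPKM.

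**Figure D4:**
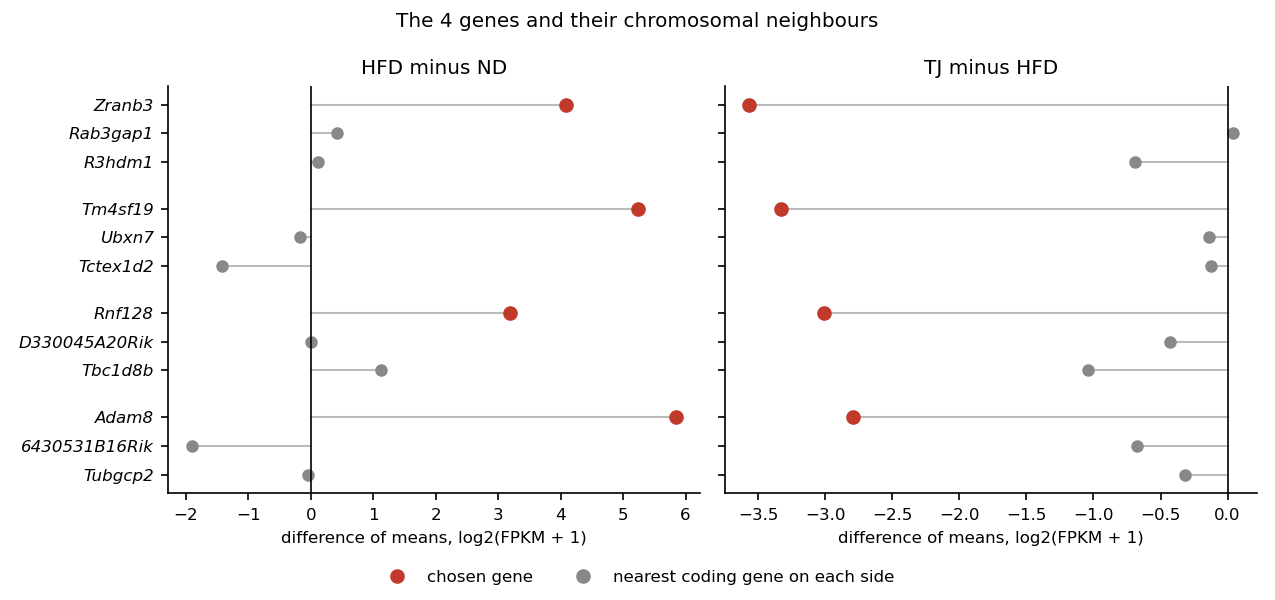
Log2 difference of group means (horizontal axis, log2(FPKM + 1)) for HFD minus ND on the left and TJ minus HFD on the right, for the 4 genes (red) and the nearest protein-coding gene on each side (grey). The neighbours lie between -1.04 and 0.04 for TJ minus HFD, the 4 genes between -3.57 and -2.80.

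Genes that work with Zranb3 were followed in a list of 22 genes of fork remodelling and DNA damage tolerance, 20 of which were tested between TJ and HFD. In the TJ group 2 of them were called lower, among them Pcna, the sliding clamp, and none was called higher, where 18.5% of all 12807 genes were called, 7.41% higher and 11.1% lower. Pcna fell from 90.7 ± 12.7 to 42.6 ± 11.1 FPKM (SD, n = 3), a log2 change of -1.10. The list's median was -0.45, against -0.14 over all genes. Between HFD and ND and between GT and ND none of its genes was called by limma, with 1 at an unadjusted p under 0.05 in each, where 11.6% and 10.6% of all genes had one. Ube2b was listed at 0 in all libraries. Of all calls between TJ and HFD, 949 were higher and 1417 lower, and 1543 and 1151 with quantile normalization, which moved the median of all genes to 0.03. When TJ replicate 1 or any HFD library was left out, the table held 0 calls in limma and 3732 to 4735 genes at an unadjusted p under 0.05, so that every count of this kind here became 0. Without TJ replicate 3, 8 genes of the list were called lower. Between TJ and HFD, with no filter or with all 12 libraries in the fit, 0 genes of this list were called, and in the 7 lists that follow 1 pump subunit was higher with no filter. Between GT and ND, array weights, which gave 5396 calls in the whole table, gave 0 to 12 genes called higher and 1 to 5 lower in each of the 8 lists.

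Around Tm4sf19, 14 osteoclast and giant cell genes and 25 subunits of the vacuolar proton pump were followed. These lists are not separate, since Atp6v0d2 is in both and counts in both. Trem2, a giant cell gene here, is also one of the lipid-associated macrophage markers above. Of 11 giant cell genes tested between TJ and HFD, 5 were called lower and 1 higher, where 11.1% and 7.41% of all genes were. Siglec15, one of the 5, passed the filter only through the HFD group, with a TJ mean of 0.683 FPKM. The median log2 difference was -1.61 (-1.08 over all 14 with no filter), 8 were called lower without TJ replicate 2, and 0 were called when TJ replicate 1 or any HFD library was left out. Tnfrsf11a, the receptor RANK, fell from 14.0 ± 2.86 to 3.70 ± 2.14 FPKM (SD, n = 3), and the integrin subunit Itgb3 from 2.75 ± 0.281 to 1.10 ± 0.0562 FPKM (SD, n = 3). Acp5, the tartrate-resistant acid phosphatase of osteoclasts, rose from 149 ± 12.3 to 307 ± 59.8 FPKM (SD, n = 3). Between HFD and ND, 7 of 11 were called higher and none lower, with a median of 2.97 (1.66 over all 14 with no filter), where 1.77% of all genes were called and 1.73% were called higher, but 0 passed with the replicate number as a block, where the whole table held 0 calls and 2239 genes at an unadjusted p under 0.05. Of these 7, Dcstamp, Siglec15 and Tnfrsf11a passed the filter on low values only through the HFD group, with ND means of 0.165, 0.0369 and 0.943 FPKM, so that the count is no measure of the list. With a pseudocount of 0.1 it was 4. Of 21 pump subunits tested, 5 were called lower in TJ and 1 higher, beside the same 11.1% and 7.41%, with a median of -0.35. With quantile normalization 9 were lower, and there were again 0 without any one of those 4 libraries. Atp6v1a, the catalytic subunit, fell from 139 ± 19.1 to 50.1 ± 25.3 FPKM and Atp6v1c1 from 73.3 ± 7.45 to 38.4 ± 12.2 FPKM, and Atp6v0e2 rose from 21.1 ± 1.53 to 52.3 ± 6.67 FPKM (SD, n = 3 each). Between HFD and ND, 3 of 23 subunits were called higher, and 0 with the replicate block. Counts between HFD and ND also moved with the libraries, to 13 higher and 1 lower subunits without ND replicate 1, where the whole table held 2098 calls, to 1 without ND replicate 2 or 3 and to 0 without any one HFD library, while those of giant cell genes were 7, 3, 1 and 0. Between GT and ND 0 genes of either list were called by limma, with 6 of 10 and 7 of 23 at an unadjusted p under 0.05, against 10.6% of all genes. Without ND replicate 2, 3 giant cell genes and 1 pump subunit were called higher, and with all 12 libraries 3 and 3. Of the L6 family, Tm4sf1 alone was tested between TJ and HFD and was not called (log2 difference 0.60, limma adjusted p = 0.133).

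Rnf128 belongs to a family of ubiquitin ligases with a protease-associated domain, a transmembrane stretch and a RING finger. Of 9 other members tested between TJ and HFD, 2 were called lower and 1 higher, with a median of -0.54. Of the 9, 2 passed the filter on low values only through 1 group. Rnf133 was one, at 4.07 ± 6.97 FPKM in HFD and 0.0164 ± 0.0284 FPKM in TJ (SD, n = 3 each). Over the 7 measured in both groups the median was -0.30. Of all genes, 11.1% were called lower and 7.41% higher, and the 2 lists that follow stand beside the same shares. Rnf149 fell from 56.6 ± 6.44 to 23.2 ± 8.77 FPKM and Rnf150 from 7.96 ± 1.62 to 3.69 ± 1.28 FPKM, and Rnf167 rose from 26.1 ± 3.20 to 42.7 ± 9.04 FPKM (SD, n = 3 each). Of 7 anergy genes and Rnf128 regulators tested, Nfatc2, a transcription factor of T cell activation, was called lower, from 5.55 ± 0.523 to 2.34 ± 0.898 FPKM (SD, n = 3), while the sum of the T cell markers was higher in TJ. The list's median was -0.58. In that list 3 were called lower without TJ replicate 3 and 2 without TJ replicate 2. Of 10 other ADAM proteases tested, 4 were called lower and none higher, with a median of -0.70. They were Adam10, from 45.2 ± 4.42 to 25.4 ± 7.99 FPKM, Adam17, the TNF convertase, from 42.9 ± 7.00 to 16.0 ± 7.41 FPKM, Adam12, from 11.4 ± 1.54 to 3.59 ± 1.91 FPKM, and Adam19, from 5.75 ± 1.77 to 1.52 ± 0.995 FPKM (SD, n = 3 each). The log2 changes of these 4 ran from -1.53 for Adam12 to -0.85 for Adam10, against -2.80 for Adam8. With TJ replicate 1 or any HFD library left out, 0 genes of these lists were called. Between HFD and ND and between GT and ND none of the ligases, anergy genes or ADAM proteases was called by limma, with 2, 2 and 4 and with 2, 2 and 2 at an unadjusted p under 0.05, where 11.6% and 10.6% of all genes had one. With ND replicate 1 left out, 2, 2 and 4 of them were called higher between HFD and ND, where the calls in the whole table rose from 255 to 2098, 1505 of them higher. With ND replicate 2 left out, 3 ligases were called lower between GT and ND, where 979 of 1038 calls were lower. The ND libraries kept, replicates 1 and 3, had germ cell sums of 98971 and 2980 FPKM. In the main fit 4 of 11 ligases passed the filter on low values only through 1 group. They include Rnf133, at 78.5 ± 116 FPKM in ND and 0.285 ± 0.260 FPKM in GT (SD, n = 3 each). The part of germ cell RNA in these calls was not tested. Of 3 known ADAM8 substrates tested between HFD and ND, Selplg, the P-selectin ligand, was called higher, as were 1.73% of all genes, at 49.8 ± 9.56 against 4.66 ± 2.94 FPKM (SD, n = 3). Chl1, an adhesion molecule, had a log2 difference of -2.06 and was not called, nor was the TNF receptor Tnfrsf1a. The call of Selplg was lost with the replicate block, with a pseudocount of 0.1, with no filter, and without ND replicate 2, ND replicate 3 or any one HFD library. Between TJ and HFD, 0 of 2 substrates were called, with 1 at an unadjusted p under 0.05, as were 41.4% of all genes.

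**Figure D5:**
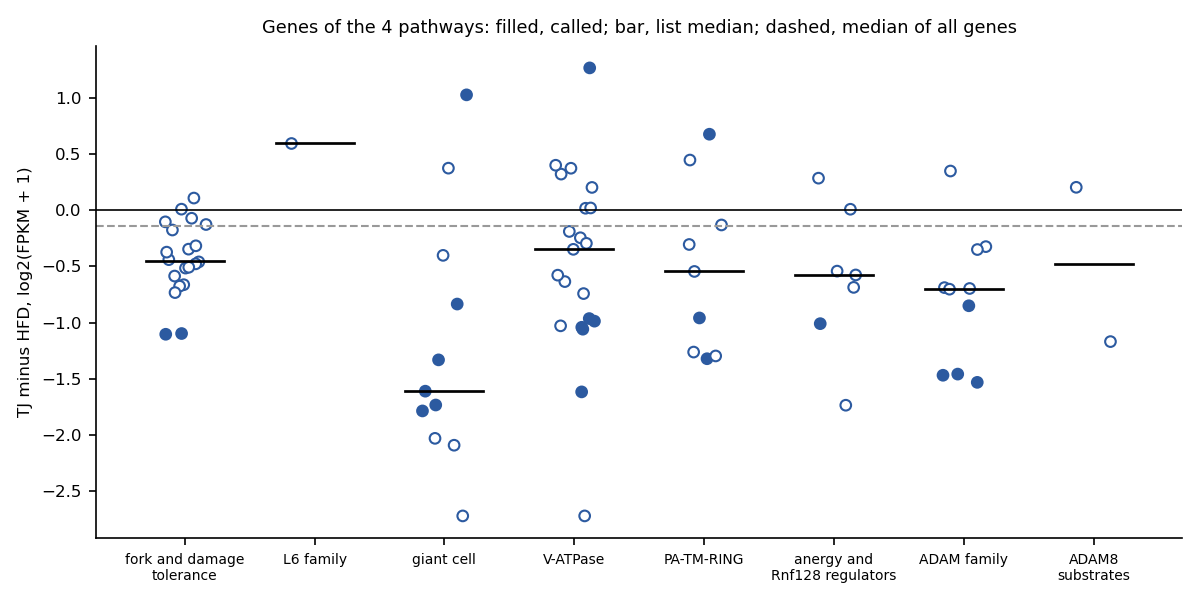
Log2 difference between TJ and HFD (vertical axis, log2(FPKM + 1)) for each tested gene of the 8 lists (horizontal axis). Filled points were called over all genes, bars are list medians and the dashed line is the median of all genes at -0.14. The giant cell list has the lowest median, -1.61.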

How the data were processed

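The deposited table held FPKM values, which the authors computed with Cufflinks 2.1.1 after mapping with STAR (2.4.0 in the submitters' processing notes, which also name CASAVA 1.8.2). Their methods name the human genome, but all 23474 identifiers are mouse, and no strand setting is given in the sources used here. Names and coordinates came from GENCODE mouse release 21, which named 22671 identifiers, and promoter sequences from RefSeq (GRCm38.p6), which matched all 4 genes.

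Pairs of groups, 6 libraries at a time, were fitted on log2(FPKM + 1) with limma 3.58.1 (eBayes with a trend; R 4.3.3) over genes whose mean reached 1 FPKM. The depth is known only roughly. The RNA is described as taken from 3 mice in each of the HFD and TJ groups; where nothing ties libraries to separate animals, p-values measure only the spread between libraries. For GT against ND, deviations of same-numbered libraries from their group means correlated at 0.219, 0.118 and 0.147, and for HFD against ND at 0.547, 0.342 and 0.122, each over 0.1, which met the criterion for pairs, although ND replicate 2 and HFD replicate 3 correlated at 0.626 and no source names what a number shares. The main fits and the permutation tests are unpaired, and fits with the number as a block are given as an alternative. Exact permutation tests used scipy 1.17.1. Named genes were the 4, the 5 most correlated with each, those in the first 10 places by their fall, and the called genes of each list (above 5 calls, the 2 with the highest and the 1 with the lowest log2 change). Some genes that this rule covers are not reported here. The genes and lists were chosen with earlier results of these data known.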

Additional observations from a re-analysis of the deposited data

How the results depend on the processing

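The log2 differences of the 4 genes kept their direction in all 3 comparisons under all 14 alternatives each. Their calls between GT and ND changed under 3 kinds of alternative. With all 12 libraries in the fit, 1 of the 4 (Adam8) was called, and with array weights 3 (Adam8, Tm4sf19 and Zranb3). The array weights were taken from an estimation that stopped before it converged. Leaving out a library gave 0 to 2 calls among the 4, the highest without ND replicate 2. Over all genes, GT against ND gave 0 calls, 131 with all 12 libraries, 5396 with array weights and 0 to 1038 without a library. TJ against HFD gave 2366 calls, 73 with no filter, 1 with all 12 libraries, 1198 with the replicate block and 0 to 3412 without a library. HFD against ND gave 255 calls, 126 with a pseudocount of 0.1, 1131 with all 12 libraries, 0 with the replicate block, 6057 with array weights and 0 to 2098 without a library. The cause of these changes was not tested. For GT against ND the replicate block gave 0 calls and changed no call of the 4 genes (limma adjusted p = 0.483 for Adam8, Tm4sf19 and Zranb3 and 0.560 for Rnf128). For TJ against HFD, same-numbered libraries correlated at -0.029, -0.051 and 0.227, and the numbers were not taken to pair them. The median of all genes between GT and ND moved from 0.02 to -0.10 with median-of-ratios scaling and to 0.18 with quantile normalization. Depth limits Tm4sf19 most, with roughly 4 to 7 fragments in the ND libraries and TJ replicate 2.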
